A study of Mus musculus with 28 samples.

Results

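The genes of 6 secreted proteins, Chil1, Chil3, Wfdc21, Wfdc17, Wfdc2 and Slpi, are described here across liver and muscle of obese mice. They were taken by gene symbol, and all 6 were found in each of the 3 deposited expression tables, which list up to 54501 genes over 28 samples. The members were chosen by their treated and vehicle FPKM values in liver at 40 d, where Chil1 and Wfdc21 had been seen to be higher in treated mice. The treated against vehicle values of all 6 genes in liver at 40 d are therefore given as a description, without a test.

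The treated mice received the drug pair aspirin (acetylsalicylate, 3.0 mg/kg a day) and trimetazidine (5.0 mg/kg a day) by daily injection into the peritoneum, and vehicle mice received an equal volume of solvent. Every mouse in either group was a male C57BL/6J animal homozygous for the leptin mutation Lepob, so no lean or untreated normal animal serves as a control. All had been put on the AMLN diet at 4 weeks of age and fed it for 20 weeks, with 40% of calories from fat, 20% from fructose and 2% cholesterol by weight, to give a model of fatty liver with inflammation (NASH). Liver and muscle were each sampled from 6 treated and 6 vehicle mice after 40 d, and from 1 treated and 1 vehicle mouse 24 h after injection. Age at sampling is not stated beyond the diet and treatment times.

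Chitinase-like proteins are secreted relatives of the chitinases that keep the fold and the sugar-binding groove of the enzymes but have lost the residues needed to cut chitin. Chil1 is the mouse counterpart of human CHI3L1, whose protein is measured in serum in studies of liver fibrosis, and Chil3 encodes Ym1, a product of macrophages and of the neutrophil lineage. Whey acidic proteins carry the small WAP domain, a fold held by disulfide bonds between cysteines. Slpi, the secretory leukocyte protease inhibitor, is its best studied member in immunity and blocks neutrophil elastase and cathepsin G. Wfdc17 is induced in activated macrophages and microglia, Wfdc2 is the counterpart of an epithelial protein used as a serum marker in human ovarian cancer, and Wfdc21 encodes a very short protein of the same family.

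The loss of the enzyme's acidic residues can be read in the coding sequences. The stretches below are codons 133 to 140 of the open reading frames (142 to 149 in Chil1), from the GENCODE M21 transcripts of build GRCm38. Capitals mark the codons at the 4 acidic positions of the chitinase signature, the last of which holds the catalytic glutamate. They are shown because these codons separate the chitinase-like genes from the enzymes.
Chia1 (chitinase): GATggactgGACctgGACtggGAA
Chit1 (chitinase): GATggccttGACcttGACtggGAG
Chil1: GATgggctgGATctcGCCtggCTC
Chil3: GATggcctcAACctgGACtggCAG
The stretch was found by searching Chia1 for the signature, so Chia1 holds 4 of 4 positions and the last glutamate by construction. At the aligned codons Chit1 also kept the acidic residue at 4 of 4 positions, with a glutamate codon at the last. Chil1 and Chil3 each kept 2 of 4, and in neither was the last codon one for glutamate. Over the aligned codons, Chil1 and Chil3 were identical at 44.1% of amino acids, which is less than the 66.8% that Chil3 shared with Chia1.

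The WAP members that stand highest in liver are also the smallest. The coding sequences of Wfdc21 (189 bases, 63 codons) and Wfdc17 (228 bases, 76 codons) follow, both on the plus strand of chromosome 11, with every cysteine codon in capitals. They are printed because these are the most abundant members and lie 40.7 kb apart on the same strand.
Wfdc21: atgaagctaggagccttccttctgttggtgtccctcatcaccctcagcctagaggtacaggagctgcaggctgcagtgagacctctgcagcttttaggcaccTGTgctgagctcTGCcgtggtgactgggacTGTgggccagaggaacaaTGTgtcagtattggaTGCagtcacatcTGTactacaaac
Wfdc17: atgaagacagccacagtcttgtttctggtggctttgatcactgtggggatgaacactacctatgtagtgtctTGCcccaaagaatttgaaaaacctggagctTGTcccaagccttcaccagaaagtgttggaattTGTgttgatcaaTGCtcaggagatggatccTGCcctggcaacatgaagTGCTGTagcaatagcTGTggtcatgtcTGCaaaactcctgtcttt
Wfdc21 has 6 cysteine codons and Wfdc17 has 9, and the 2 products matched at 36.5% of the 63 aligned amino acids. Slpi (131 codons) has 17 cysteine codons and Wfdc2 (174 codons) has 18. Wfdc17 was closer to its neighbour Wfdc18, with 68.9% of amino acids identical, but Wfdc18 averaged only 0.416 ± 0.207 FPKM in treated livers and 0.228 ± 0.153 FPKM in vehicle livers (SD, n = 6 each).

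Expression is given as FPKM, that is, fragments divided by gene length and by a scaling factor for each library. This factor was not the number of reads on genes. In treated liver 5_3 it was 15.4 M against 16.8 M reads, and in treated liver 5_5 18.7 M against 17.9 M. At 24 h it was 14.1 M against 16.96 M reads in the treated liver, and 16.2 M against 17.3 M in the vehicle liver. FPKM allows levels of different genes to be set against each other. Levels between libraries also carry the scaling factor. The liver libraries at 40 d held 16.8 to 18.9 M reads on genes, the muscle libraries 16.1 to 19.9 M and the 24 h libraries 16.1 to 17.4 M. The labelled tissues carried their defining transcripts: the hepatocyte gene Alb averaged 19200 FPKM in treated and 22319 FPKM in vehicle livers, and the muscle actin gene Acta1 averaged 20402 FPKM in treated and 21640 FPKM in vehicle muscles. At 40 d a single vehicle muscle, 3_2, had 98.0 FPKM of Alb, against at most 14.2 FPKM in the treated muscles. At 24 h the vehicle muscle had 66.7 FPKM of Alb, against 5.32 FPKM in the treated muscle. The treated livers 4_5 and 5_2 stand apart and enter each liver value below. Liver 4_5 had a summed level of 12 macrophage markers of 3089 FPKM, against 810 to 1023 FPKM in vehicle livers. Liver 5_2 had a summed level of 6 cholangiocyte markers of 99.0 FPKM, against 12.6 to 21.1 FPKM in vehicle livers.

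In liver at 40 d, Chil1 was 2.80 times as high in treated as in vehicle mice and Wfdc21 was 2.18 times as high, and in both genes the lowest treated liver lay above the highest vehicle liver. Chil3 and Wfdc17 had means 3.31 and 2.24 times the vehicle mean, with 5 of 6 treated livers above the highest vehicle liver in each. Slpi and Wfdc2 overlapped widely between the groups. All 6 genes passed the filter of 1 FPKM in at least 6 of 12 livers. Their 6 log2 differences were positive, with a median of 1.02, while the median over the 10995 genes that passed was near 0. Of the 6 members 2 had every treated liver above every vehicle liver, as did 0.427% of all genes that passed, and 0 had every treated liver below, as did 0.728%. Nothing is read from these counts, because this contrast chose the members.

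**Figure D1:**
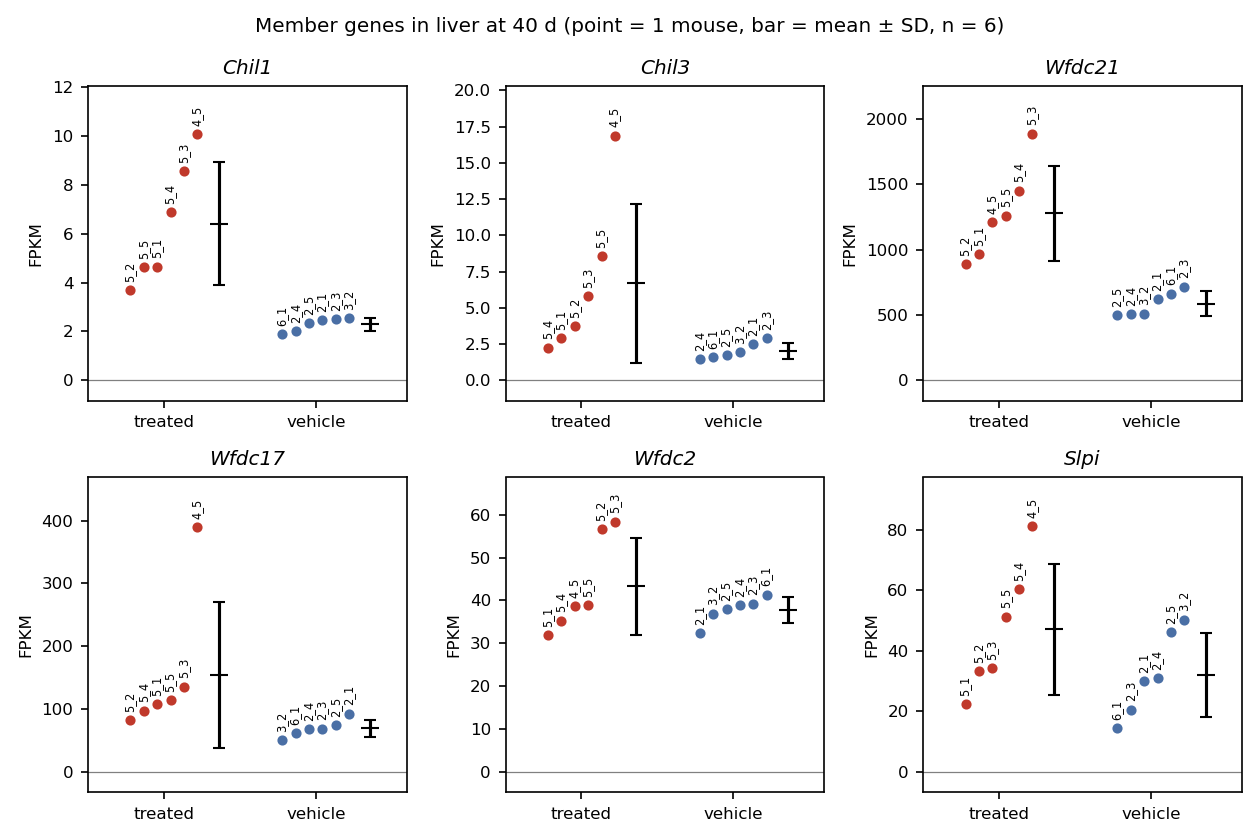
FPKM of each member in liver at 40 d, with 1 point per mouse labelled by its number and a bar for the mean ± SD of 6 mice per group. The treated points of Chil1 and Wfdc21 all lie above the vehicle points, and 1 treated liver, 4_5, sets the top of Chil1, Chil3, Wfdc17 and Slpi.

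Chil1 (ENSMUSG00000064246, chromosome 1, 134182176 to 134190181, plus strand, build GRCm38) was a low-abundance transcript in these livers. Treated livers had 3.70 FPKM at the lowest, 5.77 at the median and 10.1 at the highest, against 1.88, 2.40 and 2.55 FPKM in vehicle livers. The means were 6.42 ± 2.52 FPKM in treated livers and 2.29 ± 0.279 FPKM in vehicle livers (SD, n = 6 each), a log2 difference of 1.11 (SE 0.18). These values rest on 195 to 534 reads per treated liver and 101 to 128 reads per vehicle liver. Treated livers were also more spread out, with a coefficient of variation of 39.3% against 12.2% in vehicle livers. The liver of 4_5 was highest and that of 5_3 next, at 8.56 FPKM, while 5_2 was the lowest treated liver and still lay above every vehicle liver. Within groups over the 12 livers, Chil1 varied most like Ppp3cc, a calcineurin subunit gene (r = 0.92), Psme1, a proteasome activator gene (r = 0.92), and Gusb, a lysosomal glucuronidase gene (r = 0.90), each picked as the highest of all genes tested.

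Among genes of proteins that bind Chil1, none passed the test. The list held 6 receptors and partners, of which 3 passed the filter in liver and 0 were called at an adjusted p of 0.05 by limma, against 0.255% of all genes tested (0.264% with voom on recovered reads). Lgals3, a galectin reported to bind the protein, averaged 56.2 ± 15.2 FPKM in treated livers and 70.9 ± 5.01 FPKM in vehicle livers (log2 difference -0.37, SE 0.16, limma adjusted p = 0.335). Tmem219, a co-receptor for the protein together with Il13ra2, averaged 10.9 ± 1.67 FPKM in treated livers and 10.9 ± 0.622 FPKM in vehicle livers. Cd44, a cell surface receptor, averaged 6.67 ± 4.25 FPKM in treated livers and 4.57 ± 0.742 FPKM in vehicle livers (limma adjusted p = 0.569). Adora1, an adenosine receptor gene 9.04 kb from Chil1, averaged 7.39 ± 1.09 FPKM in treated livers and 6.77 ± 0.800 FPKM in vehicle livers, with a limma adjusted p of 0.664.

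Chil3 (ENSMUSG00000040809, chromosome 3, 106147554 to 106167564, minus strand) was as scarce as Chil1 and more uneven. Treated livers had 2.25 FPKM at the lowest, 4.79 at the median and 16.9 at the highest, against 1.45, 1.84 and 2.92 FPKM in vehicle livers. The means were 6.70 ± 5.49 FPKM in treated livers and 2.02 ± 0.566 FPKM in vehicle livers (SD, n = 6 each), a log2 difference of 1.11 (SE 0.34). Treated 5_4 fell within the vehicle range at 2.25 FPKM, and treated 5_1 (2.92 FPKM) stood level with the highest vehicle liver. Without 4_5 the treated mean was 4.67 ± 2.57 FPKM (n = 5), which is 2.31 times the vehicle mean. Reads numbered 66 to 521 per treated liver and 43 to 80 per vehicle liver.

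Some neutrophil markers moved with Chil3 from liver to liver. Over the 12 livers, after each group's mean was removed, the 3 named genes most like Chil3 were Camp (r = 0.97), S100a9 (r = 0.96) and S100a8 (r = 0.93), which encode a neutrophil antimicrobial peptide and both subunits of calprotectin. These correlations were picked as the highest of all genes tested, so they are descriptions with no p. Of 13 neutrophil markers, 6 passed the filter, and the 6 had higher treated means with a median log2 difference of 2.09. In 3 of the 6 every treated liver lay above every vehicle liver, as in 0.427% of all genes that passed. By limma 1 was called higher, against 0.1% of all genes tested. That gene, S100a9, averaged 77.0 ± 85.6 FPKM in treated livers and 7.87 ± 2.37 FPKM in vehicle livers (limma adjusted p = 0.0449). That call is unsteady: it held in 7 of 18 alternatives, with adjusted p from 0.0167 to 0.147, and was lost on leaving out any 1 vehicle liver or treated 5_1, 5_3 or 5_5. Its highest value, 246 FPKM, was in the same liver, 4_5, that had the most Chil3. The summed level of the 13 markers was 99.9 to 1578 FPKM in treated livers and 84.5 to 134.5 FPKM in vehicle livers, a sum that includes Lcn2, which hepatocytes also make. Not all markers followed Chil3. In 5_2, where Chil3 (3.75 FPKM) exceeded 5_1 and 5_4, the sum was at its treated lowest, 99.9 FPKM. Lcn2 there was 40.3 FPKM, below the vehicle range of 64.0 to 116 FPKM, and Elane was at its treated lowest, 0.487 FPKM. Lcn2 was highest in 5_5. In these whole-tissue libraries more cells of a type and more RNA per cell cannot be told apart, and the part of neutrophil RNA in the Chil3 values was not tested.

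The stretch in front of Chil3 is printed because Chil3 moved with other genes. It holds the 250 bases before the transcript start, from RefSeq on build GRCm38.p6, minus strand, chr3:106167565-106167814, and capitals mark a match to the STAT-type motif TTCNNNGAA, searched on both strands, at 172 to 164 bases before the start. The same window of Chil1, chr1:134181906-134182155 on the plus strand, is set beside it because it had no match to any of the 4 motifs searched.
Chil3: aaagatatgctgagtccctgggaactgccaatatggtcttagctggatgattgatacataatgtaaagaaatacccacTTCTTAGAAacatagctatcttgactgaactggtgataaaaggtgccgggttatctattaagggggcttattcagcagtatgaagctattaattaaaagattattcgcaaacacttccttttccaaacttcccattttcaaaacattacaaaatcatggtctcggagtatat
Chil1: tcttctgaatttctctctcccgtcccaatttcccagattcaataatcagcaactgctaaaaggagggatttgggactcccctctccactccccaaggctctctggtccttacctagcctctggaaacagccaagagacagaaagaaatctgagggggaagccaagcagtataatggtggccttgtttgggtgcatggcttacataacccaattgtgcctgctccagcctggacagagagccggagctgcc
The STAT-type motif occurs in 7.18% of 27025 promoters of the same length. The other motifs were a C/EBP type (TTGCNNAA, 9.55% of promoters), an NF-kappaB type (4.00%) and a TATA box (TATAAA, 13.0%). Slpi had 1 C/EBP-type match at 241 to 234 bases before its RefSeq start, and the windows of Wfdc2 and Wfdc17 had none of the 4. The windows of Slpi (chr2:164356508-164356757) and Wfdc2 (chr2:164562465-164562714) lie inside the spans given for these genes below. That of Wfdc17 (chr11:83703806-83704055) runs past the start of its span. Wfdc2 has 2 starts in RefSeq, and only the first was searched. RefSeq windows were matched for 5 of the 6 members, Wfdc21 being the other. The window of Chil4, a near-identical gene described below, held the same STAT-type run at 200 to 192 bases before its start. It also had a C/EBP-type and a TATA match. Chil4 had no reads in any liver but treated 5_2. A match is a run of letters and not evidence of binding.

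Other chitinase family genes were nearly silent. Of 8, only the lysosomal genes Chid1 and Ctbs passed the filter in liver and neither was called, and 5 (Chia1, Chit1, Chil5, Chil6 and Ovgp1) were under 0.1 FPKM in all 12 livers. Chil4, the gene nearest to Chil3 in sequence with 91.2% of amino acids identical, was the exception. It had 152.6 FPKM, or 8078 reads, in treated liver 5_2 and 0 reads in the other 11 livers. Chil3 had 3.75 FPKM in that liver. The sources do not say how reads that align to both of these near-identical genes were counted, so the split between them is uncertain.

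Wfdc21 (ENSMUSG00000051748, chromosome 11, 83746940 to 83752642, plus strand) was by far the most abundant member in liver. Treated livers had 888 FPKM at the lowest, 1237 at the median and 1890 at the highest, against 499, 566 and 717 FPKM in vehicle livers. The means were 1279 ± 363 FPKM in treated livers and 586 ± 93.7 FPKM in vehicle livers (SD, n = 6 each), a log2 difference of 1.09 (SE 0.18). Reads numbered 7240 to 12606 per treated liver and 3963 to 5496 per vehicle liver. Treated 5_3 was highest and 5_2 lowest of the treated livers. Without 5_3 the treated mean was 1157 ± 229 FPKM (n = 5), 1.97 times the vehicle mean.

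Some acute phase genes were not raised in liver 5_2, where Wfdc21 and Chil1 lay above every vehicle liver. The acute phase and STAT3 list, with 13 genes that passed the filter, had 13 positive log2 differences with a median of 0.95. In 4 of 13 (Itih4, Fgb, Socs3 and Cebpd) every treated liver, 5_2 included, lay above every vehicle liver, as in 0.427% of all genes that passed. By limma 0 of the 13 were called, against 0.255% of all genes tested. Saa1, serum amyloid A, had 44.1 FPKM in treated liver 5_2, below all vehicle livers (52.0 to 104 FPKM), and a treated median of 861 FPKM. Orm1, the acid glycoprotein orosomucoid, had 1118 FPKM in 5_2, inside the vehicle range of 1036 to 1239 FPKM. Wfdc21 had 888 FPKM and Chil1 3.70 FPKM in the same liver.

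The genes named here around Wfdc21 did not pass the test. Heatr6 starts 1.05 kb downstream of Wfdc21 on the same strand and averaged 2.02 ± 0.285 FPKM in treated livers and 2.34 ± 0.192 FPKM in vehicle livers (log2 difference -0.15, limma adjusted p = 0.396). The chemokine genes Ccl4 and Ccl3 also lie within 100 kb and passed the filter. Their log2 differences were 0.41 and 0.14, with limma adjusted p-values of 0.275 and 0.780. The 3 genes most like Wfdc21 across livers within groups were Deaf1 (r = 0.95), Mad1l1 (r = 0.93) and Naglu (r = 0.91), chosen as the highest over 12 livers. None of these had group means that differed by more than the replicate SD.

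Wfdc17 (ENSMUSG00000069792, chromosome 11, 83703991 to 83706268, plus strand) was the next most abundant member. Treated livers had 82.6 FPKM at the lowest, 111 at the median and 389.9 at the highest, against 50.1, 68.0 and 92.4 FPKM in vehicle livers. The means were 154.5 ± 117 FPKM in treated livers and 69.1 ± 14.1 FPKM in vehicle livers (SD, n = 6 each), a log2 difference of 0.95 (SE 0.31). The treated mean rests heavily on 4_5, whose value was 2.88 times that of the next treated liver. Without it the treated mean was 107 ± 19.7 FPKM (n = 5), 1.55 times the vehicle mean, and the log2 difference was 0.63. Treated 5_2 lay below the highest vehicle liver, 2_1, and was the single point of overlap.

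Macrophage markers were highest in the same liver as Wfdc17. Adgre1, the macrophage surface protein F4/80, had 112 FPKM in 4_5 and 14.5 to 17.8 FPKM in the other treated livers, against 12.1 to 15.7 FPKM in vehicle livers. Of 12 macrophage markers 11 passed the filter, with 11 positive log2 differences and a median of 0.40. By limma 0 were called, against 0.255% of all genes tested. The summed level of the 12 markers was 839 to 3089 FPKM in treated livers and 810 to 1023 FPKM in vehicle livers. The 3 genes most like Wfdc17 within groups were Apbb1ip (r = 0.99), Lyn (r = 0.98) and Tmsb4x (r = 0.97), and these fell to 0.98, 0.87 and 0.81 without 4_5 and 5_2. Lyn is a kinase of myeloid and B cells and Tmsb4x encodes an actin-binding peptide. The share of macrophage RNA in the Wfdc17 values was not tested.

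Slpi (ENSMUSG00000017002, chromosome 2, 164354070 to 164389095, minus strand) varied as much among vehicle livers as among treated ones. Treated livers had 22.3 FPKM at the lowest, 42.8 at the median and 81.2 at the highest, against 14.5, 30.4 and 50.2 FPKM in vehicle livers. The means were 47.1 ± 21.6 FPKM in treated livers and 32.0 ± 14.0 FPKM in vehicle livers (SD, n = 6 each), a log2 difference of 0.54 (SE 0.33). The treated livers 4_5, 5_4 and 5_5 exceeded the highest vehicle liver, and treated 5_1 (22.3 FPKM) lay below 4 of the 6 vehicle livers. The coefficient of variation was 45.8% in treated livers and 43.6% in vehicle livers. Within groups Slpi varied most like Mettl25 (r = 0.83), Jdp2 (r = 0.81), which encodes a partner of AP-1 factors, and D11Wsu47e (r = 0.80). Sdc4, the syndecan gene 35.2 kb away, averaged 99.0 ± 16.0 FPKM in treated livers and 76.9 ± 3.16 FPKM in vehicle livers (log2 difference 0.34, limma adjusted p = 0.191).

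The proteases blocked by Slpi and their relatives were scarce, and none of the 6 on the list passed the filter in liver, so none entered the main test. Prtn3, a neutrophil serine protease that Slpi does not block well, averaged 10.02 ± 7.53 FPKM in treated livers and 0.274 ± 0.0949 FPKM in vehicle livers. Elane, neutrophil elastase, averaged 2.27 ± 2.60 FPKM in treated livers and 0.175 ± 0.196 FPKM in vehicle livers. In both genes the lowest treated liver exceeded the highest vehicle liver, at 0.768 against 0.382 FPKM for Prtn3 and 0.487 against 0.454 FPKM for Elane. Prtn3 had 25 to 561 reads per treated and 5 to 12 reads per vehicle liver. Elane had 9 to 139 reads per treated and 0 to 8 reads per vehicle liver, near the floor. Of genes that passed the filter, which neither did, 0.427% had every treated liver above every vehicle liver. Ctsg, cathepsin G, averaged 0.704 ± 1.04 FPKM in treated livers and 0.0174 ± 0.0271 FPKM in vehicle livers. With no filter, the limma adjusted p was 0.145 for Prtn3, 0.330 for Elane and 0.589 for Ctsg. Among other protease inhibitors, 3 of 4 passed the filter and 0 were called, against 0.255% of all genes tested. Serpina3n averaged 479 ± 471 FPKM in treated livers and 185 ± 31.2 FPKM in vehicle livers (limma adjusted p = 0.372).

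Wfdc2 (ENSMUSG00000017723, chromosome 2, 164562413 to 164568510, plus strand) was the member whose groups lay closest. Treated livers had 31.9 FPKM at the lowest, 38.7 at the median and 58.4 at the highest, against 32.3, 38.4 and 41.4 FPKM in vehicle livers. The means were 43.3 ± 11.3 FPKM in treated livers and 37.8 ± 3.07 FPKM in vehicle livers (SD, n = 6 each), a log2 difference of 0.16 (SE 0.14). The medians were nearly level, and 2 treated livers, 5_2 (56.7 FPKM) and 5_3 (58.4 FPKM), made up the difference between the means. Within groups, Wfdc2 varied most like Lad1 (r = 0.92), Smim24 (r = 0.92) and Tead3 (r = 0.87), and Lad1 encodes an epithelial filament protein. Of 6 cholangiocyte markers 5 passed the filter and 0 were called, against 0.255% of all genes tested. Liver 5_2 had 71.9 FPKM of Krt19, the biliary keratin, and 5_3 had 4.42 FPKM, inside the vehicle range of 3.64 to 6.90 FPKM. Of 19 other WAP genes only Wfdc1 passed, at 4.13 ± 1.18 FPKM in treated livers and 3.14 ± 0.496 FPKM in vehicle livers (limma adjusted p = 0.365).

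Per length, Wfdc21 had the highest level in both groups of livers and Wfdc17 came next, without overlap between the pair. In treated livers Wfdc17 lay above all values of Slpi and Wfdc2. In vehicle livers its lowest value, 50.1 FPKM, just overlapped the highest of Slpi, 50.2 FPKM. Slpi and Wfdc2 overlapped each other, in the order Slpi then Wfdc2 by mean in treated livers and Wfdc2 then Slpi in vehicle livers. Chil3 and Chil1 were lowest and overlapped each other as well. Wfdc21 averaged 1279 FPKM and Chil1 6.42 FPKM in treated livers, and 586 FPKM and 2.29 FPKM in vehicle livers.

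**Figure D2:**
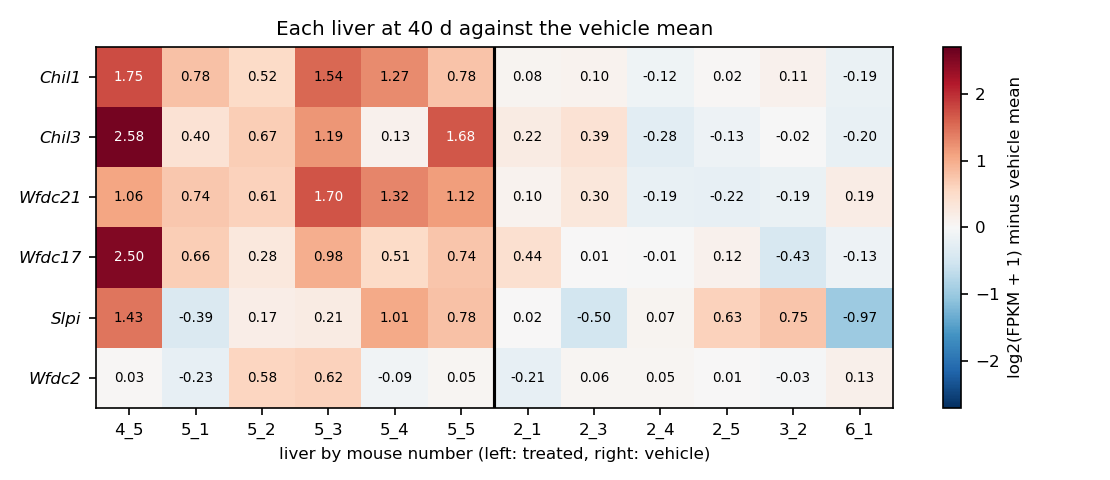
Each liver at 40 d as a column (6 treated at left, 6 vehicle at right) and each member as a row, coloured and numbered by log2(FPKM + 1) minus the vehicle mean of that gene. Liver 4_5 has the largest values in Chil3 (2.58) and Wfdc17 (2.50), and 5_3 in Wfdc21 (1.70) and Wfdc2 (0.62).

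The treated livers did not rank alike across members. Liver 4_5 was highest in Chil1, Chil3, Wfdc17 and Slpi, but ranked 4 of the treated livers in Wfdc21 and Wfdc2. Liver 5_3 was highest in Wfdc21 and Wfdc2 and next after 4_5 in Chil1 and Wfdc17. To ask which members varied together apart from treatment, all 15 pairs were correlated over the 12 livers as deviations from their own group mean, and 0 pairs had an adjusted p under 0.05, with 2 under 0.05 before adjustment. Chil3 and Wfdc17 were the closest pair (Pearson r = 0.80, permutation p = 0.0183, adjusted 0.156; Spearman rho = 0.66, permutation p = 0.0362, adjusted 0.544). Their r was 0.85 within treated livers, 0.33 within vehicle livers, and 0.42 without 4_5 and 5_4, the livers farthest out in Chil3. Chil1 and Wfdc17 came next (Pearson r = 0.71, permutation p = 0.0207, adjusted 0.156; Spearman rho = 0.46, permutation p = 0.222, adjusted 0.699), with r = 0.21 once 4_5 and 5_2 were left out. Both relations rest on those livers. Chil1 and Wfdc21, which separated the groups most clearly, had r = 0.58 (permutation p = 0.135, adjusted 0.505; rho = 0.57, permutation p = 0.128, adjusted 0.641) and r = 0.65 without 4_5 and 5_2. The neighbours Wfdc21 and Wfdc17 had r = 0.19 (permutation p = 0.641, adjusted 0.866; rho = 0.28, permutation p = 0.419, adjusted 0.699).

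**Figure D3:**
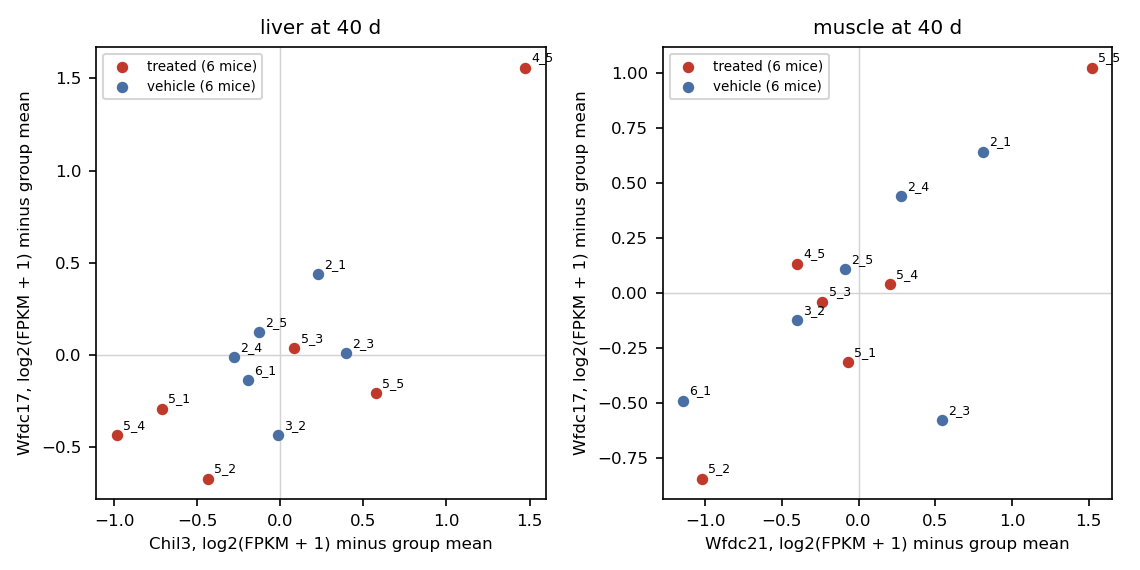
Deviations of log2(FPKM + 1) from the mean of the own group, with 1 point per mouse at 40 d, for Chil3 and Wfdc17 in liver (left) and Wfdc21 and Wfdc17 in muscle (right). Liver 4_5 and muscle 5_5 lie far from the other 11 points of their panel.

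In muscle at 40 d, the groups overlapped in all 6 members. Of all genes tested, 0.0854% had every treated muscle above every vehicle muscle and 0.171% had every treated muscle below. Only Wfdc17 and Wfdc21 passed the filter, so 2 of the 6 members were tested. By limma 0 of the 2 were called, beside 0% of the 11708 genes tested (451 genes, or 3.85%, had an unadjusted p under 0.05), and 0 of 11708 were called on recovered reads with voom. Levels in muscle and liver come from tables scaled separately and are set side by side as orders of size only.

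Wfdc17 was the most abundant member in muscle. Treated muscles had 13.6 FPKM at the lowest, 25.2 at the median and 52.3 at the highest, against 9.48, 14.6 and 23.4 FPKM in vehicle muscles. The means were 27.4 ± 13.2 FPKM in treated muscles and 15.4 ± 5.56 FPKM in vehicle muscles (SD, n = 6 each), with a log2 difference of 0.74 (SE 0.28) that did not pass the test (limma unadjusted p = 0.0203, adjusted p = 0.999). Of the treated muscles 4 lay above the highest vehicle muscle, and 5_5 was 1.89 times the next. Over the 12 muscles its closest genes within groups were Cd209d (r = 0.94), Clec10a (r = 0.94) and Hpf1 (r = 0.92), and Cd209d and Clec10a encode lectins of macrophages and dendritic cells. Clec10a itself averaged 10.4 ± 4.05 FPKM in treated muscles and 8.85 ± 2.45 FPKM in vehicle muscles.

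Wfdc21 was far lower in muscle than in liver, with widely overlapping groups. Treated muscles had 4.55 FPKM at the lowest, 9.15 at the median and 31.3 at the highest, against 4.86, 12.9 and 21.7 FPKM in vehicle muscles. The means were 12.3 ± 9.63 FPKM in treated muscles and 13.2 ± 6.14 FPKM in vehicle muscles (SD, n = 6 each; log2 difference -0.20, SE 0.39, limma adjusted p = 0.999). Leaving out treated 5_5 gave a log2 difference of -0.50, and leaving out treated 5_2 gave 0.0050. Whether the muscle and liver differences are unequal was not tested, since the liver contrast chose the gene.

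From muscle to muscle within groups, Wfdc21 varied most like Orm1 (r = 0.98), Lipf (r = 0.96) and Serpinf1 (r = 0.95), picked as the highest of all genes tested. Orm1 averaged 43.8 ± 26.4 FPKM in treated muscles and 42.2 ± 13.4 FPKM in vehicle muscles. Adipoq, the adipocyte hormone adiponectin, was looked up after these values were seen and was likewise highest in 5_5 (281 FPKM) and lowest in 5_2 (37.9 FPKM) among treated muscles, and lowest in 6_1 (71.4 FPKM) among vehicle muscles, where Wfdc21 was also lowest. The order did not match elsewhere: vehicle 2_1 had the highest vehicle Wfdc21 (21.7 FPKM) with 122 FPKM of Adipoq, against 269 FPKM in vehicle 2_3, and treated 4_5 had 204 FPKM of Adipoq with only 7.54 FPKM of Wfdc21. The part of fat tissue in the Wfdc21 values was not tested. Over the 12 muscles Wfdc21 and Wfdc17, the 1 pair in the family, had Pearson r = 0.77 (permutation p = 0.0108). By ranks the p was not under 0.05 (Spearman rho = 0.60, permutation p = 0.0565). Muscle 5_5 was the highest treated muscle in both genes. The r was 0.92 within treated muscles (exact permutation p = 0.0292), 0.53 within vehicle muscles (exact permutation p = 0.278) and 0.57 without 5_5 and 6_1. Spearman rho within treated muscles was 0.60 (exact permutation p = 0.242).

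**Figure D4:**
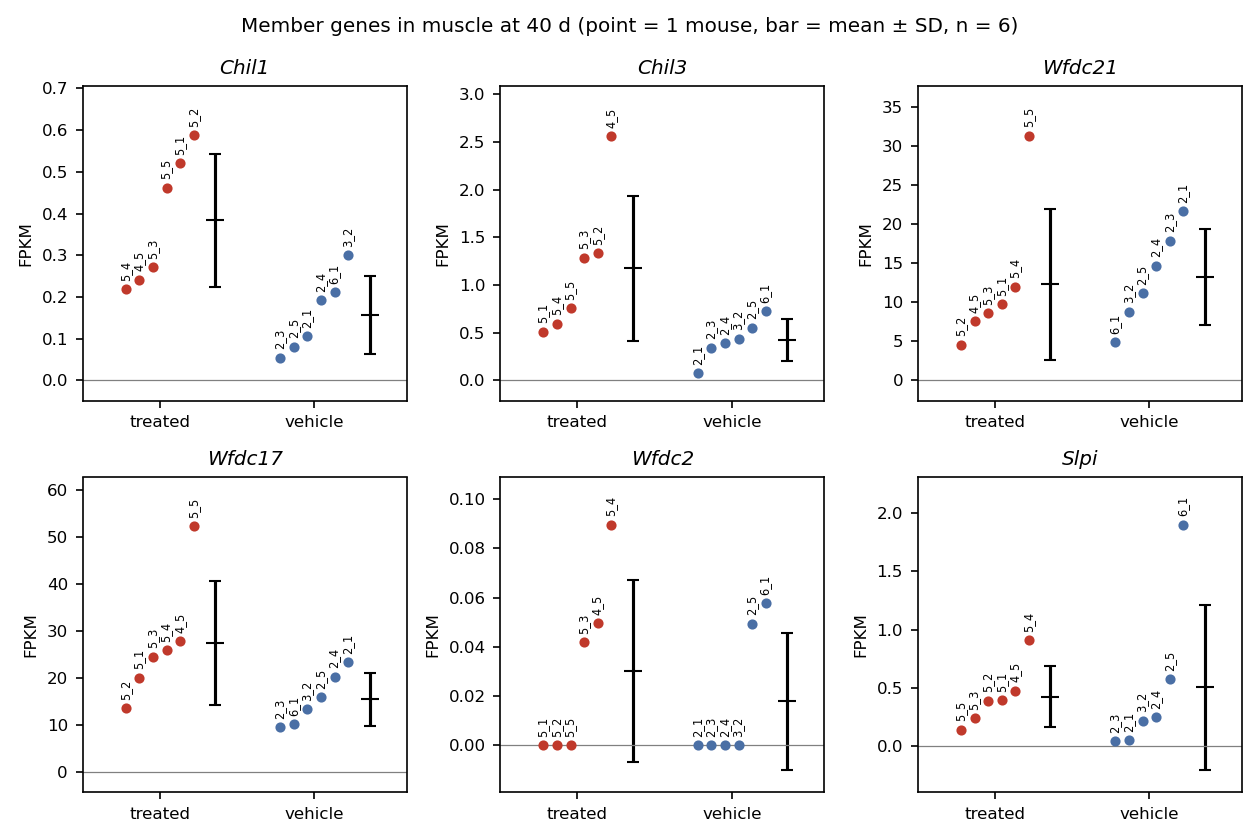
FPKM of each member in muscle at 40 d, with 1 point per mouse labelled by its number and a bar for the mean ± SD of 6 mice per group. The groups overlap in every panel, and Chil1, Wfdc2 and most Slpi and Chil3 points lie under 1 FPKM.

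The other 4 members were under the filter in muscle. Chil1 averaged 0.384 ± 0.159 FPKM in treated muscles and 0.157 ± 0.0933 FPKM in vehicle muscles, from 12 to 28 reads and 3 to 13 reads per library. Chil3 averaged 1.17 ± 0.762 FPKM in treated muscles and 0.420 ± 0.219 FPKM in vehicle muscles, from 16 to 74 reads and 2 to 18 reads. The highest Chil3 value in muscle, 2.56 FPKM, carried the label 4_5, as did the highest in liver. With no filter the log2 differences were 0.25 for Chil1 and 0.56 for Chil3, and both had a limma adjusted p of 0.925.

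S100a9 was likewise higher by mean in treated muscles, at 15.4 ± 10.4 FPKM against 3.11 ± 2.24 FPKM in vehicle muscles, without passing the test (limma adjusted p = 0.778). The summed level of 13 neutrophil markers was 14.2 to 69.8 FPKM in treated muscles and 7.98 to 15.5 FPKM in vehicle muscles, and its part in the Chil3 values was not tested. Slpi averaged 0.427 ± 0.265 FPKM in treated muscles and 0.505 ± 0.709 FPKM in vehicle muscles, where 6_1 alone reached 1.90 FPKM. Wfdc2 was at the edge of detection, with 0 to 2 reads per treated muscle and 0 to 1 read per vehicle muscle.

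At 24 h each group was a single library per tissue, so the values have no replicate check and no test. In liver, Chil1 had 1.57 FPKM in the treated and 0.990 FPKM in the vehicle library. Chil3 had 3.74 FPKM in the treated and 1.89 FPKM in the vehicle library. Wfdc21 had 839 FPKM in the treated and 661 FPKM in the vehicle library, and Wfdc2 had 32.8 FPKM in the treated and 26.3 FPKM in the vehicle library. These 4 were higher in the treated liver, by log2 differences of 0.37, 0.71, 0.34 and 0.31. With the libraries rescaled to equal sums of FPKM, the differences of Wfdc21 and Wfdc2 were 0.19 and 0.16, and with pseudocount 0.1 that of Chil1 was 0.62.

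Wfdc17 and Slpi lay the other way in liver at 24 h. Wfdc17 had 63.5 FPKM in the treated and 78.2 FPKM in the vehicle liver, a log2 difference of -0.30. Slpi had 9.50 FPKM in the treated and 17.6 FPKM in the vehicle liver, a log2 difference of -0.82. None of the 6 members reached a 2-fold difference in either direction, which 1.32% of genes did upwards and 1.47% downwards.

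In muscle at 24 h, Wfdc21 had 14.1 FPKM in the treated and 13.6 FPKM in the vehicle library. Wfdc17 had 24.0 FPKM in the treated and 37.6 FPKM in the vehicle library, a log2 difference of -0.63. The vehicle library also held more of the liver transcripts Alb (66.7 against 5.32 FPKM in the treated library) and Apoa1 (21.4 against 0.0539 FPKM). The part of liver RNA in its Wfdc21 value was not tested. The other 4 members were under 1 FPKM in both libraries, and Wfdc2 had 0 reads in the treated and 2 reads in the vehicle library. On the log2(FPKM + 1) scale neither Wfdc21 nor Wfdc17 reached 2-fold. Of genes with at least 1 FPKM in either library, 3.04% did so upwards and 1.73% downwards. Values under 1 FPKM in both libraries cannot differ 2-fold on this scale, so it says nothing of the other 4 members. Of these, Chil3 had 12 reads in the treated and 6 reads in the vehicle library.

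**Figure D5:**
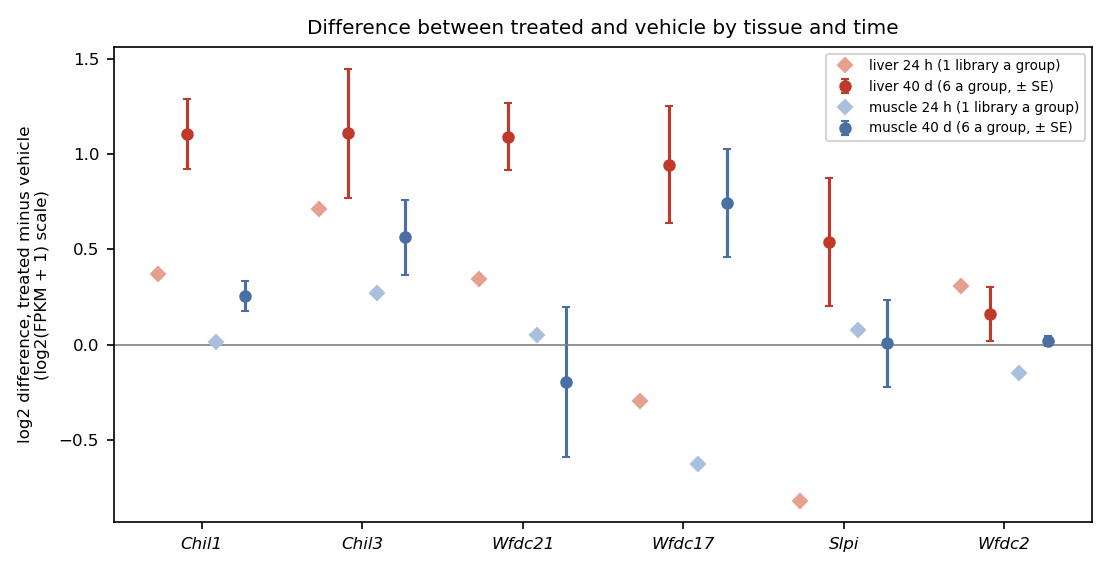
Log2 difference, treated minus vehicle, on the log2(FPKM + 1) scale for each member by tissue and time, with diamonds for single libraries at 24 h and circles with SE bars for 6 against 6 mice at 40 d (members under the filter in muscle are shown from the fit without it). In liver Chil1, Chil3 and Wfdc21 are positive at both times, whereas Wfdc17 and Slpi are negative at 24 h and positive at 40 d.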

How the data were processed

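Liver and muscle RNA was taken up in Trizol and turned into NEBNext Ultra libraries, per the labels' protocols. The authors deposited FPKM values as 3 tables (liver at 40 d, muscle at 40 d, both tissues at 24 h), per the file headers, with gene lengths and positions. The submitters' processing notes name the builds GRCm38 and mm10. No source used here gives the aligner, the counter or the strand setting. All sample columns were used (0 left out). The tables were scaled separately, so tests stay within a table.

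Every FPKM value (100%) was a whole multiple of 1 read within a tolerance of 0.01, so reads per gene could be recovered from gene length, 16.1 to 19.9 M per library. They entered a voom fit as an alternative. The main test was limma 3.58.1 in R 4.3.3 with a trended prior on log2(FPKM + 1), two-sided, over genes reaching 1 FPKM in 6 or more of the 12 libraries, p-values adjusted by Benjamini-Hochberg, and 0.05 as the threshold. Fold changes of low genes are understated on this scale. No leading label digit is shared by treated and vehicle mice, so any cage or batch behind it and treatment cannot be told apart. Correlations used deviations from group means and 100000 permutations within groups (SciPy 1.17.1), or all orders within 6 libraries. Python 3.11.15 with NumPy 2.4.6, pandas 2.3.3 and matplotlib 3.10.9 was used for tables and figures.

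On simulated liver data (10995 genes) the fit found 42 of 82 genes with a 1.5-fold change, 44 of 55 with 2-fold and 58 of 63 with 4-fold, and made 9 false calls. On simulated muscle data (11708 genes) it found 36 of 73, 49 of 62 and 62 of 65, and made 5 false calls. The simulated noise was drawn independently for each gene and library, with the same SD in both groups. It held no shift shared by the genes of a library and no unequal spread between groups. These rates may therefore not hold for the real libraries. The members, related gene lists and marker lists were chosen with earlier results of these data known. Named genes are the members, the genes of each list past the threshold or otherwise up to 3 of the highest mean, the 3 genes closest to each member across livers (predicted genes left out), and filter-passing genes within 100 kb, of which 1 is not reported here. Genes named beyond this rule (Prtn3, Elane, Ctsg, Chil4, the silent chitinase genes, Wfdc18, Adgre1, Saa1, Itih4, Fgb, Socs3, Cebpd, Adipoq, those closest in muscle and those of liver 5_2) were chosen after their values were seen. Alternatives were pseudocount 0.1, no filter, 2 rescalings, voom and leaving out each library. Coding sequences come from GENCODE M21 and promoter windows from RefSeq.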

Additional observations from a re-analysis of the deposited data

Results flagged for a closer look

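Of 24 groups of 6 libraries looked at for the members, 4 held a library whose gap to its neighbour was large for the range of its group by Dixon's test. Chance flags about 1 in 20 groups. In treated liver 4_5, Wfdc17 reached 389.9 FPKM, and that liver also held the highest Adgre1 (112 FPKM) and S100a9 (246 FPKM). In treated muscle 5_5, Wfdc21 reached 31.3 FPKM and Wfdc17 reached 52.3 FPKM, in the muscle with the highest Adipoq (281 FPKM). In vehicle muscle 6_1, Slpi reached 1.90 FPKM from 34 reads, where the other vehicle muscles had 1 to 12 reads. Apart from these, Chil4 in treated livers was looked at because of its value in 5_2, 152.6 FPKM where the other 11 livers had 0 reads, so its large gap is no count against chance. What sets these libraries apart was not tested.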

How the results depend on the processing

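The log2 differences of the 6 members in liver kept their sign in 108 of 108 alternatives, leave-one-out included. As this contrast chose the members, these differences remain a description, and their steadiness is no test. Across leave-one-out fits they ran from 0.98 to 1.23 for Chil1, 0.81 (without treated 4_5) to 1.31 (without treated 5_4) for Chil3, 0.97 to 1.19 for Wfdc21, 0.63 to 1.08 for Wfdc17, 0.34 (without vehicle 6_1) to 0.72 for Slpi and 0.07 (without treated 5_3) to 0.24 (without treated 5_1) for Wfdc2. With pseudocount 0.1 Chil1 had 1.37 and Chil3 1.38, and with voom they had 1.39 and 1.42. The main fit gave 1.11 for each. Members without overlap numbered 2 to 3, Wfdc17 joining without treated 5_2 or vehicle 2_1 and Chil3 without treated 5_4.

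The number of genes called in liver, 28, is fragile. It was 0 with no filter, 0 to 83 on leaving out 1 library, and 146 without treated 4_5 and 5_2 together, a choice made after seeing the data. Without treated 5_2 it was 83, without treated 5_1, 5_4 or 5_5 it was 17, 16 and 13, and without treated 5_3 it was 0. Without vehicle 2_1, 2_3, 2_4, 2_5, 3_2 or 6_1 it was 2, 0, 15, 8, 1 and 15. The cause was not tested. A related gene described as not called is therefore not shown to be the same in both groups.

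In muscle the count of 0 became 2 with equal sums of FPKM, 1 with median-of-ratios factors and 0 to 1 on leaving out 1 library (1 without vehicle 6_1), and members called stayed at 0 to 0. The Wfdc21 difference of -0.20 ran from -0.50 (without treated 5_5) to 0.0050 (without treated 5_2), a reversal. The count of muscle pairs correlated by Pearson, 1, was 0 within vehicle muscles. At 24 h in liver, equal sums of FPKM gave 0.19 for Wfdc21 and 0.16 for Wfdc2. At 24 h with pseudocount 0.1, Chil3 in muscle had a log2 difference of 0.82 and Wfdc2 in muscle of -1.08, from 12 reads or fewer. Depth limits Chil1, Chil3, Slpi and Wfdc2 in muscle. No paired analysis was possible because treated and vehicle mice share no label numbers.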

Other observations

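Treated liver 5_2, the only liver with Chil4 reads, also held other transcripts of mucous and gut-type epithelium that were nearly absent elsewhere. Ranked by the gap between 5_2 and the highest other liver, Chil4 came first, followed by Dmbt1, a mucosal scavenger receptor gene (226 FPKM in 5_2 and at most 1.13 FPKM in the other livers), Spink4, a protease inhibitor of goblet cells (90.9 against at most 0.548 FPKM), Muc1, a membrane mucin (38.5 against at most 1.69 FPKM), and Tff2, a trefoil peptide of mucous cells (34.9 against at most 1.79 FPKM). Chil1 and Wfdc21 were lowest in this liver among the treated ones, and Wfdc2 was next to highest. Their relation to the epithelial transcripts was not tested.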
